A study of Homo sapiens with 45 samples.

Results

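The genes described here are 9 genes of the interferon response and of antigen presentation, B2M, STAT2, IRF9, IRF1, ISG15, IFIT1, IFIT3, IFI6 and BST2. They were taken by their symbols, with no limit on measured values, from the 29159 genes of the count tables, and all 9 were found. The members and the other gene lists were chosen with earlier results of these data known. Their counts and medians beside those of all genes are thus a description, not a test. The question was whether the interferon program that CDK4/6 inhibition is known to raise in other tumours is seen in neuroblastoma cells given palbociclib (PB). RNA was measured by poly(A) RNA-seq in 3 established adrenergic neuroblastoma lines, each as control, after 24 h of 1 μM PB, and after a longer course (7 d for SK-N-BE(2)C, 5 d for the other lines), with 5 libraries in each of the 9 groups. All lines are wild type for CDK4/6: SK-N-BE(2)C is MYCN amplified with 1p loss, IMR-32 is MYCN and MEIS1 amplified with 1p loss, and SH-SY5Y is ALK mutant with gains of 1q and 17q. Each line has 1 control group, which served both PB times, so the comparisons with control share their control libraries and the late groups differ from it in time in culture as well. A 7 d response cannot be told apart from a response of SK-N-BE(2)C itself.

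Type I interferons bind IFNAR1 and IFNAR2 on the cell surface, and the kinases JAK1 and TYK2 then act on STAT proteins. STAT2 and IRF9 are subunits of the ISGF3 complex, which binds the interferon-stimulated response element (ISRE) in the promoters of genes such as ISG15, IFIT1, IFIT3, IFI6 and BST2. Type II interferon acts through the gamma-activated site (GAS), and IRF1 is an early target of that branch. B2M is the invariant light chain of MHC class I molecules, which display peptides to cytotoxic T cells. MYCN-amplified neuroblastoma is known for low surface MHC class I.

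The upstream promoter bases of 5 members are shown, because they hold the elements by which these genes are classed, and of STAT2, because it rose in every line and holds neither element. RefSeq sequences on GRCh38.p14 were searched over 250 bases before each gene's start on both strands for the ISRE letters, GAAA and again GAAA with 2 bases of any kind between them, and the GAS letters TTCNNNGAA, which can overlap each other. Capitals mark the matches, also where the match lies on the other strand, and the windows are B2M (chr15:44711333-44711428, plus strand), STAT2 (chr12:56360108-56360227, minus strand), IRF1 (chr5:132490849-132490937, minus strand), ISG15 (chr1:1013344-1013439, plus strand), IFI6 (chr1:27672236-27672388, minus strand) and BST2 (chr19:17405640-17405806, minus strand).
B2M: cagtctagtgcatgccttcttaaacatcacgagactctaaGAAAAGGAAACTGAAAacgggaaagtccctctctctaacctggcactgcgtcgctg
STAT2: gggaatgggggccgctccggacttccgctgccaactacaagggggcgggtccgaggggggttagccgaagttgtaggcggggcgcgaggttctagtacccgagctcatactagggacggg
IRF1: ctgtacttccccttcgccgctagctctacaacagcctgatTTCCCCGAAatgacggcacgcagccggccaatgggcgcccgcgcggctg
ISG15: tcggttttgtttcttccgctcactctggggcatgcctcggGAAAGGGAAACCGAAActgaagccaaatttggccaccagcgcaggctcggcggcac
IFI6: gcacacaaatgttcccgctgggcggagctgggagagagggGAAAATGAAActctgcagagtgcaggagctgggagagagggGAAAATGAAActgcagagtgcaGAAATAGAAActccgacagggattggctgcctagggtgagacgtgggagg
BST2: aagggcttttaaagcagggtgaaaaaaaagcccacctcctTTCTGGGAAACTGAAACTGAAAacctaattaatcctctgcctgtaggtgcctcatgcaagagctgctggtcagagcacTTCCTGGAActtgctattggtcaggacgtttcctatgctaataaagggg
The ISRE letters were found in 6 of 9 members (B2M, ISG15, IFIT1, IFIT3, IFI6 and BST2) and in 3.02% of 35116 promoters. The GAS letters were found in 3 of 9 members (IRF9, IRF1 and BST2) and in 6.57% of the promoters. These matches describe letters in a window and say nothing of binding in these cells.

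Values are CPM, the count of a gene per 1000000 counts of its library, and they compare a gene between groups, not genes with each other. A gene was called higher or lower when its adjusted p was under 0.05 and its log2 fold change over 0.5 in size, by edgeR's quasi-likelihood test. Libraries held 13459219 to 25441812 counts, with a median of 18494528. Replicates were different passages, and the biological coefficient of variation was 11.2% for SH-SY5Y, 13.8% for SK-N-BE(2)C and 19.8% for IMR-32. Replicate 5 of IMR-32 stood apart from the other replicates of its group in all 3 groups, and results in that line are given with and without it where it mattered. At 7 d in SK-N-BE(2)C, replicate 1 was farthest from the others (root mean square log2 distance 0.548, the others 0.286 to 0.457). Without it no member lost a call in that line, and IFIT3 and IRF9 gained one or more. In SK-N-BE(2)C the controls of replicates 3, 4 and 5 were closer to each other (chi-square per degree of freedom 2.43 to 3.18) than other pairs (at least 11.2), and so were the 24 h libraries of the same numbers (1.69 to 2.42 against at least 7.05), so the 5 libraries of each group may be fewer independent ones. The summed level of 8 adrenergic markers lay at 2077 to 2390 CPM in the SK-N-BE(2)C controls and at 2933 to 3147 CPM at 24 h, at 2024 to 3076 and 3176 to 3982 CPM in IMR-32, and at 3909 to 5163 and 5715 to 7537 CPM in SH-SY5Y. All 24 h libraries thus lay above the controls of their line in this sum, as did the 7 d libraries of SK-N-BE(2)C (2571 to 3089 CPM). Of the 8 markers, 1, 4 and 2 were called higher at 24 h in the same order of lines (10.9%, 7.87% and 10.5% of all genes). The part of these markers in the results was not tested. Summed leukocyte markers, 8 genes, did not exceed 7.57 CPM in any library. In bulk RNA, fewer cells of a type and less RNA per cell cannot be told apart.

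Of the 9 members, all 9 passed the filter on low counts for SK-N-BE(2)C, 6 for IMR-32 (not IFIT1, IFIT3 and BST2) and 8 for SH-SY5Y (not IFIT3). At 24 h against control, 3 members were called higher and 1 lower in SK-N-BE(2)C, where 10.9% of all genes tested were called higher and 10.6% lower. In IMR-32, 2 members were called higher and 0 lower (7.87% and 10.5% of all genes), 1 member was lower at an unadjusted p under 0.05, and DESeq2 called 0 lower. In SH-SY5Y, 3 were called higher and 1 lower (10.5% and 11%). The median log2 fold change at 24 h over the members tested was 0.41 for SK-N-BE(2)C, 0.39 for IMR-32 and 0.44 for SH-SY5Y, beside 0.02, 0.06 and 0.04 over all genes tested.

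After the longer course, members were called in both directions in every line. Against control, 2 members were called higher and 4 lower for SK-N-BE(2)C (24.5% and 22.3% of all genes), 2 higher and 3 lower in IMR-32 (16.6% and 15.5%), and 5 higher and 1 lower in SH-SY5Y (18.6% and 17.3%). The members' median was -0.33, -0.65 and 0.56, beside 0.01, 0.00 and 0.01 over all genes. Against 24 h, 1 was higher and 4 were lower at 7 d in SK-N-BE(2)C (17.5% and 14.4% of all genes). In IMR-32, 0 were higher and 2 lower (10.8% and 8.86%), with 0 higher also at an unadjusted p under 0.05 and by DESeq2. In SH-SY5Y, 2 were higher and 0 lower (10.5% and 6.23%), with 2 lower at an unadjusted p under 0.05 and 0 by DESeq2. The plot of fold changes against control shows STAT2 and IRF9 on the right in all lines, IRF1 on the left, and the effectors spread to both sides.

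**Figure D1:**
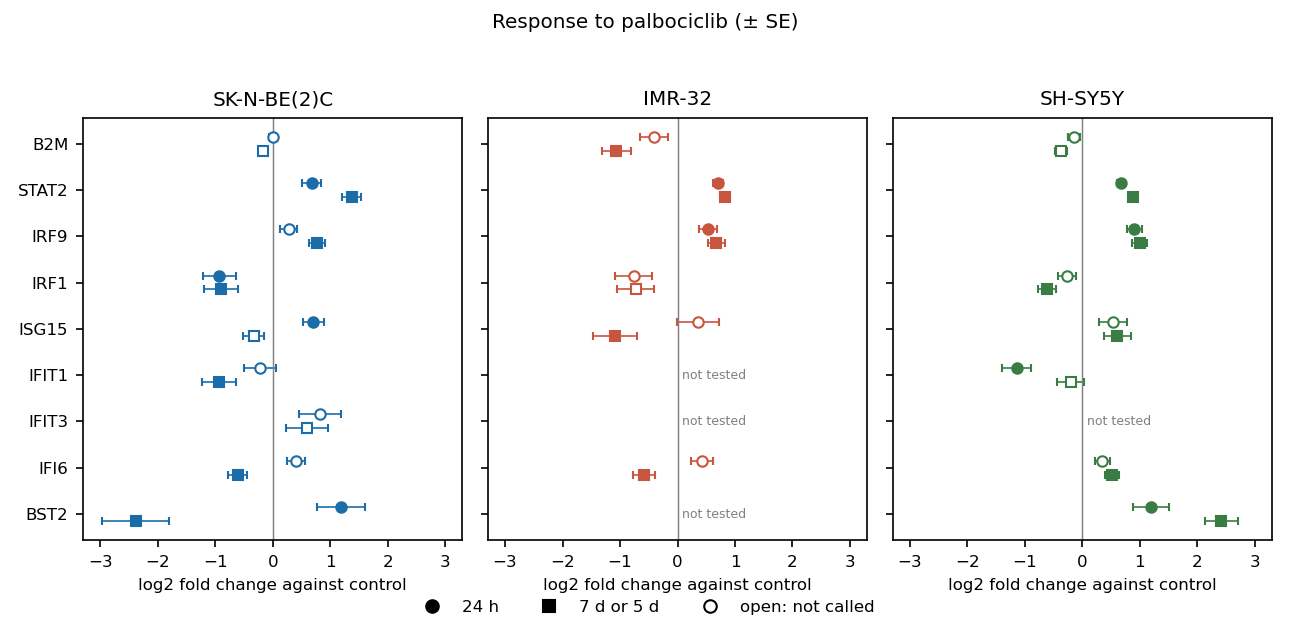
Log2 fold change against control (x axis) of the 9 members (y axis) in each line, as the edgeR estimate ± SE from 5 libraries a group, with circles for 24 h and squares for 7 d or 5 d. Filled symbols were called (adjusted p under 0.05 and over 0.5 in size), open ones were not. STAT2 lies between 0.67 and 1.37 in every line, and BST2 at the late time lies at 2.42 in SH-SY5Y and -2.38 in SK-N-BE(2)C.

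B2M (chromosome 15, 45003556 to 45011049 on GRCh37, plus strand) encodes the light chain of MHC class I. B2M stood at 328, 313, 371, 357 and 370 CPM in the SK-N-BE(2)C controls, at 327, 328, 383, 373 and 372 CPM at 24 h and at 309, 325, 288, 330 and 335 CPM at 7 d. In IMR-32, B2M stood at 42.4, 45.4, 57.0, 42.8 and 69.8 CPM in the control libraries, at 31.1, 40.3, 37.1, 29.6 and 49.7 CPM at 24 h and at 17.4, 19.3, 26.9, 17.9 and 42.8 CPM at 5 d. In SH-SY5Y, B2M stood at 87.8, 94.1, 107, 67.8 and 78.7 CPM in the control libraries, at 84.6, 78.0, 92.0, 75.0 and 66.2 CPM at 24 h and at 76.8, 63.8, 78.3, 64.4 and 69.5 CPM at 5 d. No group stood apart from its control in any line. The log2 fold change was 0.00 ± 0.06 (adjusted p = 0.98) at 24 h and -0.17 ± 0.06 (adjusted p = 0.018) at 7 d in SK-N-BE(2)C, neither of them called. In IMR-32 it was -0.41 ± 0.24 (adjusted p = 0.21) at 24 h, and B2M fell at 5 d (-1.06 ± 0.25, adjusted p = 0.0025). In that line replicate 5 was the highest library of each group, and B2M was also called lower without it. In SH-SY5Y the changes of -0.15 ± 0.10 (adjusted p = 0.26) at 24 h and -0.37 ± 0.10 (adjusted p = 0.0048) at 5 d were under the limit of size. From 24 h to 5 d in IMR-32 the change of -0.65 ± 0.25 (adjusted p = 0.053) was not called, but it was with replicates as a block (-0.71, adjusted p = 0.00024), by DESeq2 (-0.64, adjusted p = 0.035) and without replicate 5 of all groups (-0.83, adjusted p = 0.0004).

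STAT2 (chromosome 12, 56735381 to 56753987 on GRCh37, minus strand), the partner of IRF9 in ISGF3, rose in every line at both times. STAT2 stood at 9.88, 8.34, 13.0, 10.6 and 9.68 CPM in the SK-N-BE(2)C controls, at 13.8, 14.2, 19.7, 18.9 and 17.5 CPM at 24 h and at 20.8, 36.7, 34.6, 22.2 and 22.9 CPM at 7 d. In IMR-32, STAT2 stood at 37.3, 41.5, 40.2, 37.3 and 34.0 CPM in the control libraries, at 62.2, 56.2, 62.9, 57.7 and 61.3 CPM at 24 h and at 68.2, 70.7, 67.8, 79.8 and 53.1 CPM at 5 d. In SH-SY5Y, STAT2 stood at 52.5, 48.7, 52.2, 42.0 and 41.0 CPM in the control libraries, at 84.4, 76.8, 77.1, 67.8 and 75.4 CPM at 24 h and at 102, 95.2, 87.7, 86.6 and 86.1 CPM at 5 d. At 7 d in SK-N-BE(2)C, replicates 2 and 3 stood above the other libraries. All PB libraries lay above the highest control library of their line at both times. At 24 h the SK-N-BE(2)C log2 fold change was 0.67 ± 0.17 (adjusted p = 0.004), that of IMR-32 0.70 ± 0.09 (adjusted p = 1.6e-05) and that of SH-SY5Y 0.68 ± 0.07 (adjusted p = 5.7e-07). At the late time they were 1.37 ± 0.17 (adjusted p = 2.1e-06), 0.82 ± 0.09 (adjusted p = 3.5e-06) and 0.88 ± 0.07 (adjusted p = 1.3e-08) in the same order. STAT2 rose further from 24 h to 7 d in SK-N-BE(2)C (0.70 ± 0.16, adjusted p = 0.0017), where the groups did not overlap, while the step to 5 d was 0.12 ± 0.09 (adjusted p = 0.3) in IMR-32 and 0.20 ± 0.07 (adjusted p = 0.029) in SH-SY5Y, neither called, although in SH-SY5Y the 5 d libraries lay above those of 24 h.

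IRF9 (chromosome 14, 24630443 to 24637252, plus strand), the DNA-binding subunit of ISGF3, rose with STAT2 at the late time in every line. IRF9 stood at 3.79, 5.84, 4.34, 4.16 and 4.38 CPM in the SK-N-BE(2)C controls, at 5.89, 4.83, 6.94, 5.02 and 5.34 CPM at 24 h and at 6.88, 9.83, 7.36, 7.66 and 7.82 CPM at 7 d. In IMR-32, IRF9 stood at 4.91, 4.71, 5.01, 5.68 and 7.01 CPM in the control libraries, at 7.48, 7.96, 7.14, 7.38 and 8.33 CPM at 24 h and at 9.13, 9.48, 6.82, 11.2 and 7.34 CPM at 5 d. In SH-SY5Y, IRF9 stood at 11.9, 10.2, 9.85, 7.87 and 7.88 CPM in the control libraries, at 20.4, 18.7, 20.5, 14.9 and 15.8 CPM at 24 h and at 24.5, 22.8, 18.3, 18.7 and 15.8 CPM at 5 d. In SK-N-BE(2)C the 7 d libraries lay above all controls and the 24 h libraries overlapped with them, in IMR-32 the 24 h libraries lay above all controls and 1 of the 5 d libraries did not, and in SH-SY5Y both PB groups lay above all controls. At 24 h the change for SK-N-BE(2)C, 0.28 ± 0.14 (adjusted p = 0.13), was not called, and those of 0.53 ± 0.15 (adjusted p = 0.013) for IMR-32 and 0.90 ± 0.13 (adjusted p = 1.9e-05) for SH-SY5Y were. At the late time the log2 fold change was 0.76 ± 0.14 (adjusted p = 0.00014), 0.67 ± 0.15 (adjusted p = 0.0017) and 1.0 ± 0.13 (adjusted p = 3.2e-06). The 24 h call in IMR-32 was at the limit of size and was lost under both other scalings, by DESeq2, and without control replicate 1 or 2 (0.49 and 0.48). It was also lost without replicate 1 (0.50, adjusted p = 0.07) or replicate 2 (0.45, adjusted p = 0.077) of all groups. From 24 h to 7 d in SK-N-BE(2)C the change of 0.49 ± 0.14 (adjusted p = 0.0065) was just under the limit of size and was called in 9 alternatives that kept this limit. Exons of other annotated genes overlap 521 bases of IRF9's exons on the other strand and 1544 on the same strand. How reads in those bases were counted is not known.

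IRF1 (chromosome 5, 131776132 to 131844411, minus strand), a factor that activates interferon and MHC class I genes, moved the other way. IRF1 stood at 2.39, 1.76, 2.94, 1.78 and 3.03 CPM in the SK-N-BE(2)C controls, at 0.599, 1.57, 2.11, 1.34 and 0.825 CPM at 24 h and at 1.01, 1.51, 1.56, 0.964 and 1.49 CPM at 7 d. In IMR-32, IRF1 stood at 1.68, 1.55, 1.47, 1.5 and 2.36 CPM in the control libraries, at 0.684, 1.15, 0.942, 0.380 and 1.75 CPM at 24 h and at 1.57, 0.763, 0.917, 1.04 and 0.896 CPM at 5 d. In SH-SY5Y, IRF1 stood at 7.01, 5.84, 6.67, 4.87 and 5.71 CPM in the control libraries, at 5.81, 4.83, 5.81, 3.69 and 5.08 CPM at 24 h and at 5.04, 4.46, 3.23, 3.25 and 4.77 CPM at 5 d. The SK-N-BE(2)C libraries at 7 d lay below all controls of that line, and the other PB groups overlapped with theirs. SK-N-BE(2)C cells had a fall of IRF1 at 24 h (-0.93 ± 0.29, adjusted p = 0.014) and at 7 d (-0.90 ± 0.29, adjusted p = 0.01), and SH-SY5Y cells at 5 d (-0.61 ± 0.16, adjusted p = 0.0024). The 24 h change in SH-SY5Y, -0.27 ± 0.16 (adjusted p = 0.16), was not called. The 24 h call in SK-N-BE(2)C was lost without replicate 5 of all groups (-0.70, adjusted p = 0.11), and the 5 d call in SH-SY5Y without replicate 3 (-0.49, adjusted p = 0.023). In IMR-32, with 7 to 41 counts a library, the changes of -0.76 ± 0.32 (adjusted p = 0.081) at 24 h and -0.73 ± 0.32 (adjusted p = 0.07) at 5 d were not called; with replicates as a block the 24 h change was called (-0.79, adjusted p = 0.046), as it was without replicate 5 of all groups (-0.90, adjusted p = 0.024), and the 5 d change was called without 24 h replicate 4 or 5 or 5 d replicate 1. Exons of IRF1-AS1 and of another gene overlap 2805 bases of IRF1's exons on the other strand, and the sources used here do not give the strand used in counting.

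**Figure D2:**
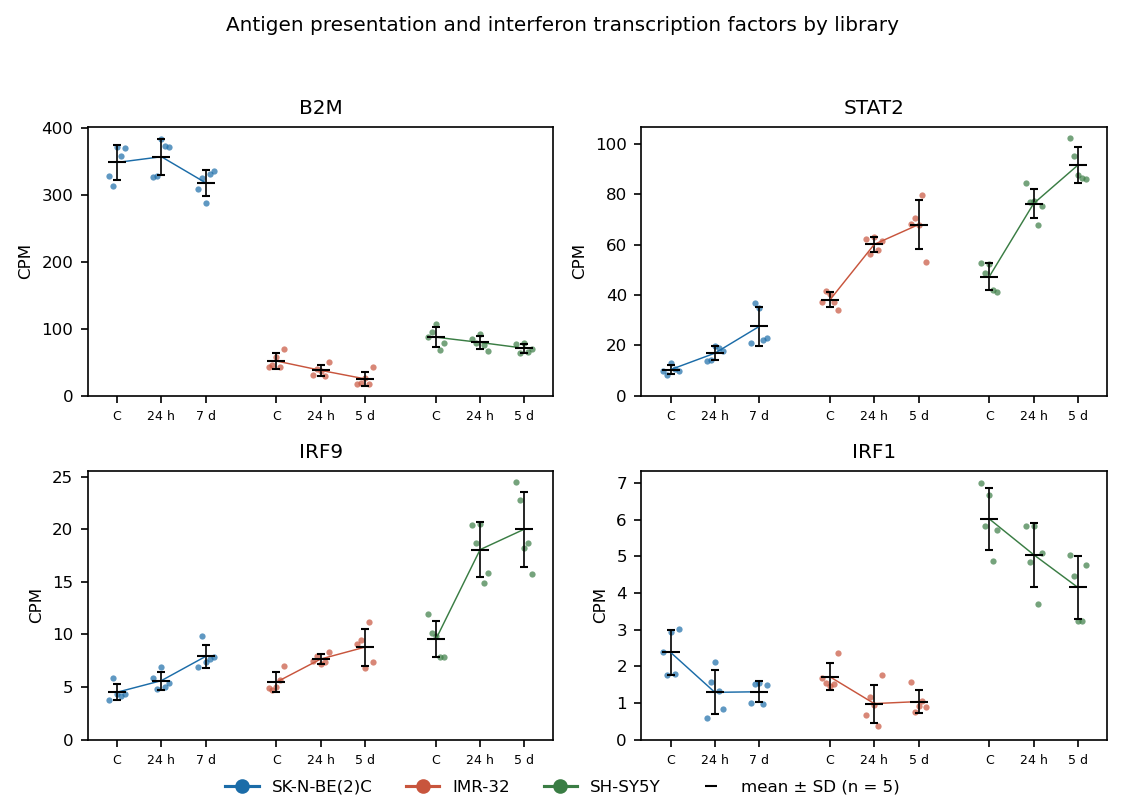
CPM (y axis, from 0) of B2M, STAT2, IRF9 and IRF1 in each of 45 libraries (points), by line and treatment (x axis; C, control), with the mean ± SD of 5 libraries in black. STAT2 rises above every control library in all lines, and B2M falls at 5 d in IMR-32.

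ISG15 (chromosome 1, 936518 to 949920, plus strand), a ubiquitin-like protein that is joined to other proteins after interferon, was higher after 24 h and lower again by 7 d in SK-N-BE(2)C. ISG15 stood at 6.74, 4.17, 5.64, 6.91 and 6.81 CPM in the SK-N-BE(2)C controls, at 8.99, 10.0, 11.3, 10.7 and 9.51 CPM at 24 h and at 6.50, 6.48, 3.61, 4.14 and 4.08 CPM at 7 d. In IMR-32, ISG15 stood at 3.01, 4.06, 3.16, 4.30 and 1.03 CPM in the control libraries, at 3.52, 5.16, 3.97, 4.23 and 2.32 CPM at 24 h and at 1.51, 1.20, 0.631, 1.21 and 2.80 CPM at 5 d. In SH-SY5Y, ISG15 stood at 1.18, 0.631, 1.09, 0.715 and 1.0 CPM in the control libraries, at 1.54, 1.57, 1.31, 1.05 and 1.36 CPM at 24 h and at 1.06, 1.17, 1.5, 2.02 and 1.69 CPM at 5 d. In SK-N-BE(2)C the 24 h libraries lay above all controls and all 7 d libraries, and the other groups overlapped. In that line ISG15 rose at 24 h (0.71 ± 0.18, adjusted p = 0.0035), was -0.33 ± 0.18 (adjusted p = 0.11) at 7 d against control and fell from 24 h to 7 d (-1.04 ± 0.18, adjusted p = 0.00011). In IMR-32 it was 0.35 ± 0.36 (adjusted p = 0.48) at 24 h and fell at 5 d against control (-1.09 ± 0.38, adjusted p = 0.026) and against 24 h (-1.45 ± 0.38, adjusted p = 0.0089). In SH-SY5Y it was 0.53 ± 0.24 (adjusted p = 0.07) at 24 h and rose at 5 d (0.61 ± 0.23, adjusted p = 0.03). The 5 d call against control in IMR-32 was lost without control replicate 2 or 4 or 5 d replicate 2, 3 or 4 (-0.90 to -1.02, adjusted p = 0.059 to 0.064), and without replicate 1, 2, 3 or 4 of all groups (adjusted p = 0.08 to 0.15), while without replicate 5 of all groups the change was -1.68 (adjusted p = 1.8e-05). The call against 24 h was lost without replicate 2 or 4 of all groups (adjusted p = 0.073 and 0.052). In SK-N-BE(2)C the 7 d change against control was called without replicate 2 of all groups (-0.56, adjusted p = 0.013). The 5 d call in SH-SY5Y was lost by DESeq2 (adjusted p = 0.053), with no filter (0.057), without control replicate 2 or 4 or 5 d replicate 4 or 5 (adjusted p = 0.066 to 0.092), and without replicate 2, 3, 4 or 5 of all groups, with a change of 0.40 (adjusted p = 0.17) without replicate 4.

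IFI6 (chromosome 1, 27992575 to 27998723, minus strand), a mitochondrial and endoplasmic reticulum protein that restricts flaviviruses, was not called at 24 h in any line. IFI6 stood at 7.16, 6.54, 5.49, 7.21 and 7.95 CPM in the SK-N-BE(2)C controls, at 11.8, 9.39, 8.75, 8.03 and 8.49 CPM at 24 h and at 6.19, 5.34, 3.61, 3.74 and 4.41 CPM at 7 d. In IMR-32, IFI6 stood at 8.05, 6.26, 8.06, 8.07 and 5.17 CPM in the control libraries, at 8.90, 12.7, 8.73, 8.74 and 6.89 CPM at 24 h and at 4.42, 5.67, 4.81, 3.40 and 5.71 CPM at 5 d. In SH-SY5Y, IFI6 stood at 18.4, 19.3, 20.9, 15.2 and 13.4 CPM in the control libraries, at 25.0, 22.9, 26.0, 19.9 and 18.6 CPM at 24 h and at 30.1, 26.4, 30.2, 22.4 and 22.2 CPM at 5 d. The 24 h libraries of SK-N-BE(2)C and the 5 d libraries of SH-SY5Y lay above all their controls, and the late libraries of SK-N-BE(2)C and IMR-32 lay below all their 24 h libraries. At 24 h the log2 fold change was 0.41 ± 0.16 (adjusted p = 0.045) for SK-N-BE(2)C, 0.42 ± 0.19 (adjusted p = 0.1) for IMR-32 and 0.35 ± 0.13 (adjusted p = 0.027) for SH-SY5Y, each under the limit of size. Without 24 h replicate 5 the IMR-32 change was called (0.51, adjusted p = 0.044). At the late time IFI6 fell in IMR-32 (-0.58 ± 0.19, adjusted p = 0.021) and SK-N-BE(2)C (-0.61 ± 0.16, adjusted p = 0.0036) and rose in SH-SY5Y (0.52 ± 0.12, adjusted p = 0.0013). From 24 h to the late time it fell in IMR-32 (-1.0 ± 0.19, adjusted p = 0.0011) and SK-N-BE(2)C (-1.01 ± 0.16, adjusted p = 6.1e-05) and was 0.17 ± 0.12 (adjusted p = 0.28) in SH-SY5Y. The rise in SH-SY5Y was near the limit of size and went under it without control replicate 4 or 5 or 5 d replicate 1 or 3 (0.44 to 0.48), or replicate 5 of all groups (0.49). The fall against control in IMR-32 was lost without 5 d replicate 4 (-0.47, adjusted p = 0.058) and without replicate 1, 3 or 4 of all groups (adjusted p = 0.09 to 0.13). LINC02574 shares 216 exon bases with IFI6 on the same strand, and how reads in those bases were counted is not known.

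BST2 (chromosome 19, 17513748 to 17516439, minus strand), or tetherin, a membrane protein that holds budding virus at the cell surface, gave the largest changes among the members tested. BST2 stood at 1.36, 0.395, 0.399, 0.966 and 0.595 CPM in the SK-N-BE(2)C controls, at 2.40, 0.825, 2.05, 1.62 and 1.79 CPM at 24 h and at 0.189, 0, 0.0420, 0.284 and 0.220 CPM at 7 d. In SH-SY5Y, BST2 stood at 0.253, 0.842, 0.521, 0.906 and 0.476 CPM in the control libraries, at 1.13, 2.04, 1.66, 1.18 and 0.942 CPM at 24 h and at 4.48, 3.07, 3.86, 2.91 and 2.48 CPM at 5 d. In IMR-32 it held 0 or 1 count in each of the 15 libraries and was not tested. In SH-SY5Y the 24 h libraries lay above all controls and the 5 d libraries above all 24 h libraries; in SK-N-BE(2)C the 7 d libraries lay below all others, with 3, 0, 1, 5 and 4 counts, 13 in all. At 24 h BST2 rose by a log2 fold change of 1.20 ± 0.31 (adjusted p = 0.004) in SH-SY5Y and 1.19 ± 0.42 (adjusted p = 0.027) in SK-N-BE(2)C. At the late time it rose in SH-SY5Y (2.42 ± 0.29, adjusted p = 9.5e-07) and fell in SK-N-BE(2)C (-2.38 ± 0.58, adjusted p = 0.0016). From 24 h to the late time the changes were 1.22 ± 0.26 (adjusted p = 0.0013) in the first and -3.57 ± 0.53 (adjusted p = 3e-05) in the second. The 24 h call in SK-N-BE(2)C, from 8 to 48 counts a library, was lost without control replicate 2, 3 or 5 or 24 h replicate 1, 3 or 5 (1.02 to 1.18, adjusted p = 0.05 to 0.074), and without replicate 3, 4 or 5 of all groups (adjusted p = 0.053 to 0.11). The other BST2 calls held in all 26.

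IFIT1 (chromosome 10, 91152303 to 91166244, plus strand) binds foreign RNA and blocks its translation, and IFIT3 (chromosome 10, 91087064 to 91137230, plus strand) joins it in a complex. IFIT1 stood at 1.12, 1.23, 0.998, 0.594 and 0.757 CPM in the SK-N-BE(2)C controls, at 0.599, 0.747, 1.21, 0.613 and 1.07 CPM at 24 h and at 0.695, 0.378, 0.588, 0.567 and 0.330 CPM at 7 d. In SH-SY5Y, IFIT1 stood at 2.28, 2.95, 3.96, 2.77 and 2.33 CPM in the control libraries, at 1.07, 1.46, 1.54, 1.05 and 1.41 CPM at 24 h and at 3.02, 1.67, 3.14, 3.69 and 1.45 CPM at 5 d. In SH-SY5Y the 24 h libraries lay below all controls, and the other groups overlapped. IFIT1 fell in SK-N-BE(2)C at 7 d (-0.94 ± 0.29, adjusted p = 0.0093) after -0.22 ± 0.28 (adjusted p = 0.55) at 24 h, and in SH-SY5Y it fell at 24 h (-1.14 ± 0.25, adjusted p = 0.0012) and was -0.20 ± 0.24 (adjusted p = 0.47) at 5 d, a rise from 24 h (0.94 ± 0.26, adjusted p = 0.0069). From 24 h to 7 d in SK-N-BE(2)C it fell (-0.72 ± 0.30, adjusted p = 0.047), a call that was lost in 17 of 26 alternatives, among them control replicate 1, 3 or 5, 24 h replicate 2, 3 or 5 and 7 d replicate 2, 3, 4 or 5 left out (-0.58 to -0.78, adjusted p = 0.05 to 0.12). The rise from 24 h in SH-SY5Y was lost without replicate 4 of all groups (0.73, adjusted p = 0.058), and the 7 d fall in SK-N-BE(2)C without replicate 2 (-0.74, adjusted p = 0.07). In IMR-32, IFIT1 had 6, 1, 3, 2 and 5 counts in the controls, 1, 0, 1, 0 and 1 at 24 h and 1, 0, 0, 0 and 0 at 5 d, too few for a test.

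IFIT3 stood at 0.796, 1.01, 0.948, 0.966 and 0.919 CPM in the SK-N-BE(2)C controls, at 0.999, 0.825, 1.87, 3.07 and 1.75 CPM at 24 h and at 0.568, 1.94, 2.19, 1.30 and 1.16 CPM at 7 d. Its groups overlapped and no change was called, with log2 fold changes of 0.82 ± 0.36 (adjusted p = 0.073) at 24 h and 0.60 ± 0.36 (adjusted p = 0.15) at 7 d. The first was called without 24 h replicate 1 (0.96, adjusted p = 0.044), 24 h replicate 2 (1.0, adjusted p = 0.028) or 7 d replicate 1 (0.81, adjusted p = 0.047), or without replicate 2 of all groups (1.03, adjusted p = 0.046), and the second without 7 d replicate 1 (0.78, adjusted p = 0.048). In IMR-32, IFIT3 had 0 counts in 14 of 15 libraries and 3 in the other, and in SH-SY5Y 3, 3, 4, 0 and 0 counts in the controls, 0, 0, 0, 0 and 1 at 24 h and 1, 0, 0, 0 and 0 at 5 d. Exons of LIPA overlap 94 bases of IFIT3's exons on the other strand.

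**Figure D3:**
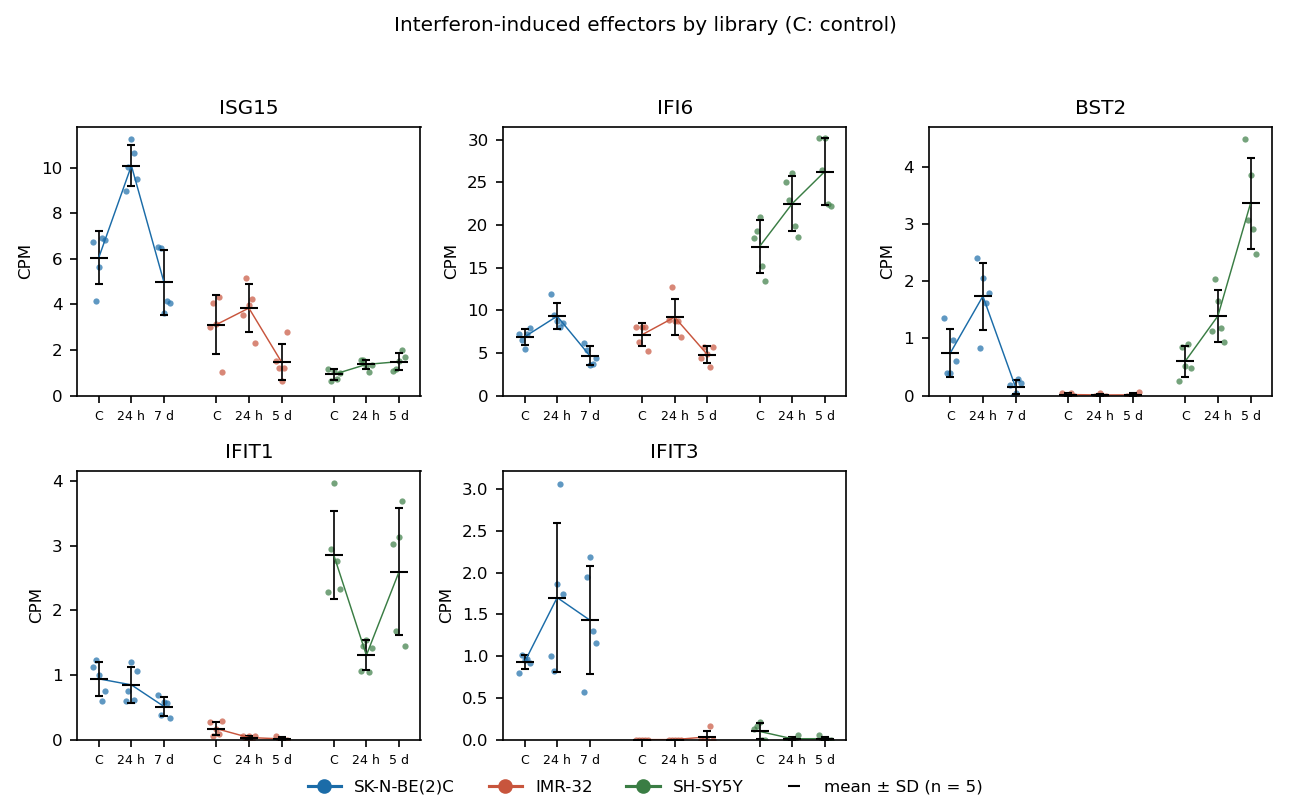
CPM (y axis, from 0) of ISG15, IFI6, BST2, IFIT1 and IFIT3 in each of 45 libraries (points), by line and treatment (x axis; C, control), with the mean ± SD of 5 libraries in black. The late means of BST2 and IFI6 lie below the control means in SK-N-BE(2)C and above them in SH-SY5Y, and IFIT3 is at or near 0 outside SK-N-BE(2)C.

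Whether a response differed between lines was tested in 1 fit over all 45 libraries, as the difference of 2 log2 fold changes. At 24 h no member's response was called different in any pair of lines, where 4.49%, 2.04% and 3.07% of all genes were (SK-N-BE(2)C against IMR-32, SK-N-BE(2)C against SH-SY5Y, IMR-32 against SH-SY5Y). Of the members, 6, 8 and 6 were tested in both lines by themselves. For the others this test cannot decide, since their counts were near 0 in at least 1 line of the pair. At an unadjusted p under 0.05, edgeR gave 1 (IFIT1), 3 (IRF9, IFIT1 and IFIT3) and 1 (IRF9) members. IFIT1 in the first pair rests on counts near 0 in IMR-32, and IFIT3 in the second on counts near 0 in SH-SY5Y. IRF9's response differed by -0.66 ± 0.20 between SK-N-BE(2)C and SH-SY5Y (adjusted p = 0.061) and was called with replicates as a block (adjusted p = 0.015). The difference of STAT2's 24 h response was -0.03 ± 0.17 between SK-N-BE(2)C and either of the other lines, and -0.01 ± 0.17 between IMR-32 and SH-SY5Y.

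At the late time, differences were called for 3 members between SK-N-BE(2)C and IMR-32, 3 between SK-N-BE(2)C and SH-SY5Y and 5 between IMR-32 and SH-SY5Y, where 23.9%, 21.2% and 20.8% of all genes were called. Of these, 2, 2 and 3 were tested in both lines by themselves, and the others rest on counts near 0 in one line or, for IFIT3 between IMR-32 and SH-SY5Y, in both. BST2's late response was lower in SK-N-BE(2)C than in SH-SY5Y, with a log2 difference of -4.83 ± 0.61 (adjusted p = 7.6e-08), and so was that of IFI6 (-1.16 ± 0.24, adjusted p = 0.00022). The size for BST2 also rests on counts near 0, 0 to 5 a library at 7 d in SK-N-BE(2)C. IFI6's response was also lower in IMR-32 than in SH-SY5Y (-1.16 ± 0.24, adjusted p = 0.00021), and so was that of ISG15 (-1.76 ± 0.42, adjusted p = 0.0014). B2M's response was higher in SK-N-BE(2)C than in IMR-32 by 0.91 ± 0.23 (adjusted p = 0.0023), and lower in IMR-32 than in SH-SY5Y (-0.74 ± 0.24, adjusted p = 0.014). STAT2 rose by 0.58 ± 0.17 more in SK-N-BE(2)C than in IMR-32 (adjusted p = 0.0072), and the difference of 0.46 ± 0.17 from SH-SY5Y (adjusted p = 0.035) was under the limit of size. That difference was called with RLE factors and with no filter (0.50 and 0.51) and without replicate 1, 4 or 5 of all groups (0.53 to 0.55). The STAT2 call for the IMR-32 pair was lost without replicate 2 of all groups (0.37, adjusted p = 0.14), that of B2M between IMR-32 and SH-SY5Y without replicate 1 or 4 (-0.69 and -0.66, adjusted p = 0.069 and 0.07), and that of ISG15 without replicate 4 (-1.33, adjusted p = 0.055). The late course was 7 d in SK-N-BE(2)C and 5 d in the others, so line and time cannot be told apart in pairs with SK-N-BE(2)C.

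The lines also differed before treatment. Control levels were called different for 6 members between SK-N-BE(2)C and IMR-32, 8 between SK-N-BE(2)C and SH-SY5Y and 8 between IMR-32 and SH-SY5Y, where 62.1%, 57.5% and 54.2% of all genes were. Of these member calls, 3, 7 and 5 were of members tested in both lines by themselves. The others, among IFIT1, IFIT3 and BST2, had counts too low for a test in IMR-32 or SH-SY5Y by itself. B2M averaged 348 ± 26.0 CPM (SD, n = 5) in SK-N-BE(2)C, 87.1 ± 14.8 CPM in SH-SY5Y and 51.5 ± 11.9 CPM in IMR-32, each step called. STAT2 ran the other way, with 47.3 ± 5.50 CPM in SH-SY5Y, 38.1 ± 2.92 CPM in IMR-32 and 10.3 ± 1.71 CPM in SK-N-BE(2)C, of which the first pair was not called different. SH-SY5Y had the highest control mean of IRF9 (9.53 ± 1.70 CPM), IRF1 (6.02 ± 0.846 CPM), IFI6 (17.5 ± 3.06 CPM) and IFIT1 (2.86 ± 0.681 CPM), and SK-N-BE(2)C the highest of ISG15 (6.05 ± 1.17 CPM).

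Of 21 interferon ligand genes listed, 4 were in the tables (IFNA5, IFNG, IFNL2 and IFNL3), each with at most 1 count in any library. The 24 h log2 fold changes of the receptor and kinase genes tested (8, 8 and 9 of 9) lay between -0.38 (IFNAR2 in IMR-32) and 0.30 (IL10RB in SH-SY5Y), under the limit of size, where 7.87% to 10.9% of all genes were called higher and 10.5% to 11% lower. Late, 1, 2 and 2 were called, where 16.6% to 24.5% of all genes were called higher and 15.5% to 22.3% lower. JAK2, a kinase of the type II receptor, rose in SK-N-BE(2)C (0.60 ± 0.17, adjusted p = 0.0042), IFNGR2 (-0.67 ± 0.10, adjusted p = 7.9e-05) and IL10RB (-0.84 ± 0.22, adjusted p = 0.0051) fell in IMR-32, and IFNGR1 (0.61 ± 0.07, adjusted p = 5.9e-07) and IFNLR1 (0.94 ± 0.21, adjusted p = 0.00083) rose in SH-SY5Y. IFNAR1, IFNAR2, JAK1 and TYK2 were called in no line at either time against control.

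IRF7, an amplifier of type I interferon, rose in SK-N-BE(2)C at 7 d (0.95 ± 0.38, adjusted p = 0.033) and in SH-SY5Y at 24 h (0.55 ± 0.16, adjusted p = 0.0081) and 5 d (0.51 ± 0.16, adjusted p = 0.0086), and in IMR-32 at most 1 count was seen. IRF5 rose in SK-N-BE(2)C at 7 d, from 0 to 10 counts a control library to 10 to 52 counts, and IRF2 rose in SH-SY5Y at 5 d (0.57 ± 0.09, adjusted p = 3e-05), while IRF3 was called nowhere. USP18, which holds the type I receptor in check, fell late in all lines, with log2 fold changes of -2.42 ± 0.25 (adjusted p = 2.6e-07) for SK-N-BE(2)C and -1.69 ± 0.24 (adjusted p = 5.7e-06) for SH-SY5Y. In IMR-32, USP18 went from 18 to 33 counts a control library to 0 to 3 counts at 5 d, at the limit of counting. SOCS1, another inhibitor of JAK signalling, fell at 24 h in IMR-32 (-0.80 ± 0.27, adjusted p = 0.033) and went from 28 to 78 counts a control library to 0 to 2 counts at 5 d. In SK-N-BE(2)C cells SOCS1 fell at both times, with log2 fold changes of -0.89 ± 0.36 (adjusted p = 0.049) and -1.03 ± 0.36 (adjusted p = 0.017), and SOCS3 fell in IMR-32 and SH-SY5Y at both times.

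Among 52 other interferon-stimulated genes, 30, 21 and 31 were tested. At 24 h 4 rose and 7 fell in SK-N-BE(2)C, 1 rose and 2 fell in IMR-32, and 5 rose and 3 fell in SH-SY5Y, with medians of 0.16, -0.10 and 0.15. Of all genes, 10.9% rose and 10.6% fell in the first line, 7.87% and 10.5% in the second, and 10.5% and 11% in the third. Late, 2 rose and 12 fell, 3 rose and 6 fell, and 5 rose and 8 fell, with medians of -0.20, -0.36 and 0.02 beside 0.01, 0.00 and 0.01 over all genes, of which 24.5%, 16.6% and 18.6% rose and 22.3%, 15.5% and 17.3% fell. SHISA5 was called higher at 24 h in all lines, with log2 fold changes of 0.68 ± 0.09 (adjusted p = 1.2e-05), 0.57 ± 0.13 (adjusted p = 0.0039) and 1.06 ± 0.19 (adjusted p = 0.00032). ISG20, an exonuclease of RNA, rose late in IMR-32 (1.43 ± 0.43, adjusted p = 0.012) and SH-SY5Y (1.65 ± 0.30, adjusted p = 9.6e-05). PLSCR1, a scramblase, fell at both times in IMR-32 and SK-N-BE(2)C, late with log2 fold changes of -1.42 ± 0.25 (adjusted p = 0.0003) and -2.78 ± 0.24 (adjusted p = 3e-08). IFITM3, which blocks viral entry, fell late in IMR-32, from 9 to 60 counts a control library to 0 counts in 4 of 5 libraries and 5 in the other at 5 d, and in SH-SY5Y (-1.16 ± 0.49, adjusted p = 0.044).

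Of 26 genes of MHC class I antigen presentation, 19, 15 and 17 were tested. At 24 h 3, 1 and 2 rose and 2, 1 and 1 fell in the same order of lines. Late 2 rose in SH-SY5Y and 1 in SK-N-BE(2)C, and 5, 4 and 2 fell, with medians of -0.32, -0.18 and -0.03. These counts of presentation genes, B2M among them, stand beside the same shares of all genes as above. The heavy chain HLA-C rose at 24 h in SH-SY5Y (0.62 ± 0.22, adjusted p = 0.027) and SK-N-BE(2)C (0.53 ± 0.14, adjusted p = 0.0065), and was 0.30 ± 0.22 (adjusted p = 0.24) and 0.43 ± 0.14 (adjusted p = 0.013) late, not called. TAPBP, tapasin of the peptide-loading complex, rose late in SH-SY5Y (0.71 ± 0.26, adjusted p = 0.023) and SK-N-BE(2)C (1.12 ± 0.35, adjusted p = 0.0099), and TAP1 had at most 1 count in any library. HLA-C and TAPBP were not tested in IMR-32. RFXAP was called lower at 24 h and late in 2 lines. Its log2 fold changes were -0.56 and -0.64 for SK-N-BE(2)C, and -0.66 and -0.65 for SH-SY5Y. IMR-32 gave -0.41 and -0.18 for RFXAP, not called. PSME1 was called lower late for IMR-32, at -0.59, and for SK-N-BE(2)C, at -0.51. PSME1 was 0.46 late in SH-SY5Y, not called.

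Genes that silence retroelements are listed because release of retroelement RNA is one route known to raise interferon genes. Of 17 tested, 8 fell at 24 h in each line, with medians of -0.30, -0.22 and -0.20, where 10.6%, 10.5% and 11% of all genes fell. Late, 2 rose and 7 fell in SK-N-BE(2)C, 1 rose and 7 fell in IMR-32, and 0 rose and 8 fell in SH-SY5Y. Of all genes, 24.5%, 16.6% and 18.6% rose late and 22.3%, 15.5% and 17.3% fell. From 24 h to 5 d in IMR-32, 5 rose, DNMT1 and UHRF1 among them, and 0 fell (10.8% and 8.86% of all genes). Retroelement RNA was not examined, and this route was not tested. DNMT1, the maintenance DNA methyltransferase, fell from 568 to 229 and 252 CPM (24 h, late) for SK-N-BE(2)C, from 428 to 148 and 252 CPM for IMR-32 and from 441 to 168 and 202 CPM for SH-SY5Y. At 24 h that was -1.34 ± 0.10 (adjusted p = 1.9e-08), -1.49 ± 0.14 (adjusted p = 4.7e-07) and -1.40 ± 0.09 (adjusted p = 8e-10). UHRF1, which brings DNMT1 to replicated DNA, fell at 24 h, with log2 fold changes of -1.93 ± 0.32 (adjusted p = 0.0002), -4.55 ± 0.29 (adjusted p = 1.2e-08) and -2.33 ± 0.17 (adjusted p = 3.5e-08). Both were also lower late in all lines. Summed levels of 9 mesenchymal markers went from 442 to 1058 CPM in the controls to 166 to 312 CPM at 5 d in IMR-32, from 1268 to 1724 CPM to 981 to 1093 CPM in SH-SY5Y, and from 552 to 778 CPM to 354 to 667 CPM at 7 d in SK-N-BE(2)C, the last with overlap. Of those tested, 4 of 5, 5 of 9 and 6 of 8 fell late in these lines, where 15.5%, 17.3% and 22.3% of all genes fell, while FOSL1 rose in SH-SY5Y and FN1 in SK-N-BE(2)C. Their part in these results was not tested.

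Across the 45 libraries, with line means removed, the levels of STAT2 and IRF9 had a Pearson r of 0.82 (0.80 within SK-N-BE(2)C, 0.82 within IMR-32 and 0.96 within SH-SY5Y), and those of IFI6 and ISG15 an r of 0.75 (0.86, 0.82 and 0.41 in that order). These libraries share their treatment groups, so the values are a description. The sign between IFI6 and STAT2 differed by line, at 0.85 in SH-SY5Y, -0.24 in IMR-32 and -0.56 in SK-N-BE(2)C. Of 12556 genes, the nearest in pattern to STAT2 were GOLGA2 (r = 0.96) and SERINC3 (0.96), and to IRF9 SLC35A2 and PLPPR2 (0.87 and 0.86). PMP22 was among the 2 nearest to B2M (0.88). The nearest to IRF1 were MEPCE and MEA1 (0.75 and 0.72), to ISG15 FANCF and SLC27A5 (0.77 and 0.77), and to IFI6 B4GALT3 and PROCR (0.84 and 0.83).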

How the data were processed

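Poly(A) RNA was sequenced as paired-end reads from a directional kit. Per the submitters' processing notes, Trim Galore 0.6.4, STAR 2.6.1d and the hg19 build were used, and the authors counted reads per gene with STAR. These deposited raw counts were used. The sources used here do not give the strand setting. Other tables deposited by the authors were not used: they hold CPM made from these counts, and log2 fold changes with p-values from DESeq2 1.32.0.

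Members and gene lists were chosen with earlier results of these data known. Counts were fitted with edgeR 4.0.16 in R 4.3.3: TMM factors, genes kept by filterByExpr (minimum count 10, minimum total 15, share 0.7), and robust quasi-likelihood fits of the 15 libraries of each line. Benjamini-Hochberg adjustment ran over all genes tested, 14055 for SK-N-BE(2)C, 14293 for IMR-32 and 14547 for SH-SY5Y. A fit of all 45 libraries tested differences between lines. Standard errors come from the log2 fold change and the F statistic. The method was checked on simulated counts. Alternatives used RLE factors, library size alone, no filter, DESeq2 1.42.0, a replicate block, no limit on the fold change, and each library or replicate number left out.

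Same-numbered replicates, which are passages, correlated above 0.1 after group means were removed in all comparisons of IMR-32 and SH-SY5Y (lowest 0.11) and at 24 h in SK-N-BE(2)C (lowest 0.22). In the 7 d comparisons of SK-N-BE(2)C the correlations were also positive, at 0.091 to 0.34 against control and 0.057 to 0.46 against 24 h.

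Named genes were the members; all measured ligand, receptor, kinase, STAT and IRF genes; up to 3 genes per list and direction called in most lines, from which a selection is printed; DNMT1 and UHRF1; and the 2 genes nearest in pattern to each member tested in all lines. TAP1, outside this rule, was named after its values were seen. Some genes and features of the lines that the rule or labels name are not reported here. Positions follow GENCODE on GRCh37; promoters follow RefSeq on GRCh38.p14. Standard errors cover the spread between libraries.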

Additional observations from a re-analysis of the deposited data

Results flagged for a closer look

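Among 71 groups of 5 libraries looked at, 2 held a library far from the others in a member, and chance alone gives about 1 such group in 20. In the SK-N-BE(2)C controls, replicate 2 had 5.84 CPM of IRF9 and the others 3.79 to 4.38 CPM. In the IMR-32 controls, replicate 5 had 2.36 CPM of IRF1 and the others 1.47 to 1.68 CPM.

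The late response differed between lines by a test of the difference for 5 members measured in both lines. Between SK-N-BE(2)C and IMR-32 the log2 difference was 0.91 for B2M and 0.58 for STAT2. Between SK-N-BE(2)C and SH-SY5Y it was -1.16 for IFI6 and -4.83 for BST2, and both genes fell late in the first line and rose in the second. BST2 had 13 counts over the 5 libraries of SK-N-BE(2)C at 7 d, at the limit of counting, so the size of its difference depends on the fit. Between IMR-32 and SH-SY5Y it was -0.74 for B2M, -1.76 for ISG15 and -1.16 for IFI6.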

How the results depend on the processing

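Of 1914 member values under an alternative, 1757 kept direction and call, 71 lost the call, 42 gained one and 44 changed sign without any call in either fit; STAT2 against control kept its call in all of them. Scaling changed no call's direction. With RLE factors, library size alone or DESeq2, 1 member was called at 24 h in IMR-32 instead of 2, since IRF9 lies at the limit of size. Sign changes at values near 0 were B2M in SK-N-BE(2)C at 24 h (-0.0011 with RLE factors, -0.0016 by DESeq2), IRF1 from 24 h to 7 d there (-0.012 with no filter), and the difference of STAT2's 24 h response from SK-N-BE(2)C to IMR-32 (0.020, 0.049 and 0.056 with RLE factors, library size alone and no filter) and to SH-SY5Y (0.012, 0.018 and 0.019).

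With replicates as a block, where numbers pair the passages, 1 member's 24 h response (IRF9) differed between SK-N-BE(2)C and SH-SY5Y instead of 0, IRF1 in IMR-32 at 24 h and B2M there from 24 h to 5 d gained a call, and 1 lost it. The call lost was that of IFIT1 in SK-N-BE(2)C from 24 h to 7 d (-0.73, adjusted p = 0.055), where same-numbered libraries correlated at 0.057 to 0.46. For control levels the block refers to replicate 1 of each line.

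Leaving out libraries or replicate numbers, the members called ranged over 2 to 5 at 24 h in SK-N-BE(2)C, 1 to 4 at 24 h and 3 to 6 at 5 d in IMR-32, 1 to 3 there from 24 h to 5 d, and 1 to 2 from 24 h to 5 d in SH-SY5Y, and late differences between IMR-32 and SH-SY5Y over 2 to 4. Values that changed sign ranged over -0.032 to 0.029 (B2M, 24 h) and, from 24 h to 7 d, -0.16 to 0.25 (IRF1) and -0.52 to 0.13 (IFIT3) in SK-N-BE(2)C, -0.28 to 0.36 for IRF1 from 24 h to 5 d in IMR-32, and -0.12 to 0.22 for ISG15 in SH-SY5Y. The differences of STAT2's 24 h response ranged over -0.081 to 0.051 for SK-N-BE(2)C against IMR-32, -0.067 to 0.015 for it against SH-SY5Y, and -0.038 to 0.026 for IMR-32 against SH-SY5Y. The cause was not tested. Without the limit on size, genes called in SK-N-BE(2)C rose from 3022, 6572 and 4488 to 6577, 9993 and 8335, in IMR-32 from 2620, 4576 and 2803 to 4738, 7296 and 4914, and in SH-SY5Y from 3129, 5225 and 2434 to 7154, 9516 and 6331 (24 h, late, late against 24 h). The 24 h differences between lines over all genes (731, 332 and 500) became 1121, 670 and 926 under the block, 1122 and 510 for the pairs with SK-N-BE(2)C without the size limit, 219 for SK-N-BE(2)C against SH-SY5Y with no filter, and as few as 371, 137 and 228 with a replicate number left out. IFIT1, IFIT3 and BST2 near 0 counts limit what IMR-32 can show.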
